A study of Mus musculus with 18 samples.

Results

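The genes described here are 10 components of the transforming growth factor beta (TGF-beta) system, chosen by symbol from the 22063 genes of the deposited table. They are the ligand genes Tgfb1, Tgfb2 and Tgfb3, the receptor genes Tgfbr1, Tgfbr2 and Tgfbr3, the latent binding protein genes Ltbp1, Ltbp3 and Ltbp4, and the activator gene Thbs1. All 10 were found, and 10 of 10 passed the filter on low counts that left 14774 genes for testing. RNA was sequenced from the kidneys of wild-type mice (WT) and of knockout mice (KO) without Ecm1, a secreted matrix glycoprotein that has been proposed to keep TGF-beta latent. Each genotype was sampled at 1, 2 and 4 weeks of age, with 3 libraries in each of the 6 groups and 18 in all. No altered allele or treatment is stated for the WT groups, and none beyond the Ecm1 knockout is stated for the KO groups. The labels give no strain, no sex and no description of the Ecm1 allele, and they do not say whether a library holds 1 animal or pooled animals. Whether the 3 libraries of a group stand for 3 different animals is not stated either, and the p-values below therefore rest on a spread between libraries that could be partly technical.

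TGF-beta is secreted in a latent form, in which its own propeptide stays folded around the growth factor and is bound by a latent binding protein that fixes the complex to the extracellular matrix. Integrins, proteases and thrombospondin-1 can release the ligand, which then brings together a type II and a type I receptor kinase and signals through SMAD proteins to matrix and cytoskeletal genes. In the kidney the pathway takes part in nephron and vessel development and is known as a driver of mesangial matrix growth and fibrosis in the adult.

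Total counts ran from 14930565 to 21427764 per library. Ecm1 had at most 2 counts in any KO library and 301 to 1315 counts in the WT libraries, which checks the genotype labels. Marker genes of the kidney tubule were present in every library (5 proximal tubule markers summed to 11538 to 12033 CPM, counts scaled to library depth, in WT at 4 weeks), and 3 skeletal muscle markers summed to at most 1.51 CPM. The 5 adrenal markers summed to 380 CPM in WT replicate 3 at 1 week and to at most 15.3 CPM in any other library. The 4 adipocyte markers were also highest in that library, at 81.7 CPM, and next in KO replicate 3 at 2 weeks, at 49.7 CPM. WT replicate 3 at 1 week enters the first WT step and KO against WT at 1 week. Y-linked genes had at most 3 counts in WT replicate 1 at 2 weeks, in KO replicate 3 at 4 weeks and in 5 of the 6 libraries at 1 week, and 1569 to 3404 counts in the others. On the first principal component of all tested genes (64.9% of the variance), which followed age, KO replicates 2 and 3 at 4 weeks lay at 74.1 and 65.8, KO replicate 1 at 87.5 and the WT libraries of that age at 99.2 to 104. On the second, replicate 1 of both genotypes at 2 weeks lay at -50.7 and -49.7 and the other 4 libraries of that age between -24.0 and -10.2. Results that rest on these libraries are given with and without them. In whole tissue, fewer cells of a type and less RNA per cell cannot be told apart.

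Promoter sequences were read for 7 of the 10 genes from RefSeq on GRCm38.p6, as the 250 bases before each annotated start, and 3 windows are shown because they belong to the most abundant ligand gene, to the ligand gene that differed most in this study, and to the latent binder gene whose levels varied together with theirs. The capitals mark matches to GGGCGG (the GC box, either strand, so CCGCCC reads as the same motif), TATAAA (the TATA box, gene strand only), CACGTG (an E-box, either strand), TGACGTCA (a cAMP response element, either strand) and CCAAT (either strand, so ATTGG reads as the same motif, marked in the Ltbp1 window only). Positions are chr7:25686752-25687001 on the plus strand for Tgfb1, chr1:186705990-186706239 on the minus strand for Tgfb2 and, for the first of 2 annotated Ltbp1 starts, chr17:75005279-75005528 on the plus strand.
Tgfb1: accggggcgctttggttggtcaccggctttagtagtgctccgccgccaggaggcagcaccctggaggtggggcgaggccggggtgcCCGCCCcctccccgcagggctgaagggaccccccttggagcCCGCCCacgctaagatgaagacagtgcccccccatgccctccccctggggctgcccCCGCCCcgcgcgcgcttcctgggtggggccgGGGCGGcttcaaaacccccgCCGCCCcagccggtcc
Tgfb2: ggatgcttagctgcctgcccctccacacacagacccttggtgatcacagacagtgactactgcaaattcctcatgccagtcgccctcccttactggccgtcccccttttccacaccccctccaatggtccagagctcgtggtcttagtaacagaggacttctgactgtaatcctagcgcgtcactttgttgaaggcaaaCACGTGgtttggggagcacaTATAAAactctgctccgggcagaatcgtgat
Ltbp1: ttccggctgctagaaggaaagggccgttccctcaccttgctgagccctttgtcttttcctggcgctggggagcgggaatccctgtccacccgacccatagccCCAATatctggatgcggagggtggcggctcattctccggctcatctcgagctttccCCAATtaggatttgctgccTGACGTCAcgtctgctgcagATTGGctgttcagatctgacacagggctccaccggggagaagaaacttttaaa
The Tgfb1 window was 75.2% G and C, against a median of 52.4% over 32851 windows of all genes, and held 5 GC boxes, whose first bases lay 164, 123, 67, 36 and 16 bases before the start. No TATA box was found in it. The Tgfb2 window was 53.6% G and C and held a TATA box 31 bases and an E-box 51 bases before the start, a CCAAT match at 130 bases and no GC box. The Ltbp1 window held a cAMP response element at 73 bases and CCAAT matches at 148, 92 and 53 bases. Over all windows the GC box was present in 32.7%, TATAAA on the gene strand in 7.59%, CACGTG in 6.02%, TGACGTCA in 1.55% and CCAAT in 33.8%. Neither TGAGTCA (the AP-1 site, in 4.46% of windows) nor GTCTAGAC (a SMAD palindrome, in 0.167%) was found in the windows of these 7 genes. A match is a description of the letters and not a site of binding.

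Per length, as fragments per kilobase of transcript scaled to depth (FPKM), the levels of the 10 genes in WT kidney at 1 week spanned from 3.78 ± 0.439 (SD, n = 3) for Tgfb3 to 61.1 ± 8.45 for Ltbp4. From the highest mean down the order was Ltbp4, Tgfbr2, Thbs1, Ltbp3, Tgfbr1, Tgfb1, Ltbp1, Tgfbr3, Tgfb2 and Tgfb3. The library ranges of Tgfbr2 and Thbs1, of Tgfbr1 and Tgfb1, of Tgfb1 and Ltbp1, and of Tgfb2 and Tgfb3 overlapped, so these neighbours were not separated by their spread. At 4 weeks the order in WT was Tgfbr2, Thbs1, Tgfbr1, Ltbp4, Tgfbr3, Ltbp3, Tgfb1, Ltbp1, Tgfb3 and Tgfb2, from 16.9 ± 0.948 to 0.328 ± 0.0236 FPKM, with overlapping ranges of Thbs1 and Tgfbr1, of Ltbp4 and Tgfbr3, and of Tgfbr3 and Ltbp3. Ltbp4 thus went from the highest mean to the fourth, and Tgfb2 and Tgfb3 changed places at the bottom. In KO at 4 weeks the order of the means was the same, from 17.6 ± 3.42 for Tgfbr2 to 0.731 ± 0.268 for Tgfb2, but 6 of the 9 neighbouring pairs overlapped: all but Tgfbr1 and Ltbp4, Tgfb1 and Ltbp1, and Ltbp1 and Tgfb3.

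**Figure D1:**
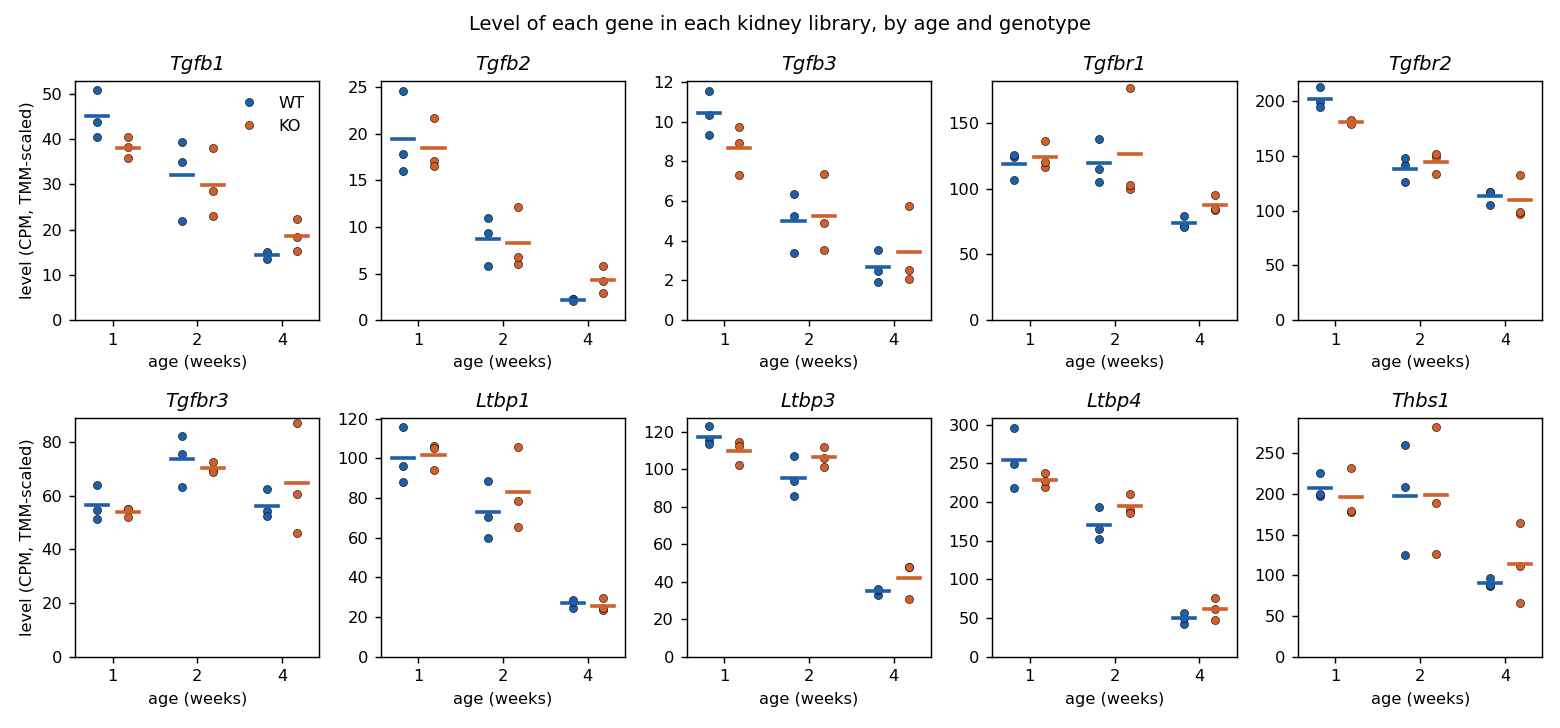
Level of each of the 10 genes in every library, in CPM scaled by TMM (vertical axis, from 0) against age in weeks, with WT in blue, KO in orange and a bar at the mean of 3 libraries. The levels at 4 weeks lie below those at 1 week in both genotypes for every gene but Tgfbr3.

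The first comparison asks how the system changes as the kidney matures. Between 1 and 2 weeks 4 of the 10 genes fell in WT and none rose, where 11.1% of all genes tested fell and 12.5% rose. Between 2 and 4 weeks 9 of 10 fell in WT, all but Tgfbr3, where 24.8% of all genes fell and 48.3% changed in either direction. In KO 2 of 10 fell in the first step (9.16% of all genes) and 7 of 10 in the second (18.7%, with 36.9% changed in either direction). These counts depended on the fit: the 4 of the first WT step became 2 to 6 with 1 library left out and 7 by limma. The 2 of the first KO step became 0 to 2 with 1 library left out. All KO libraries had at most 3 Y-linked counts at 1 week and 2712 to 3404 at 2 weeks. Age and sex therefore cannot be told apart in the first KO step. A sex covariate rests there on the groups that hold both sexes. The 7 of the second KO step became 3 with only the libraries compared and 3 to 9 with 1 library left out, lowest without KO replicate 1 at 4 weeks. The median log2 fold change of the 10 was -0.47 and -1.14 in the WT steps and -0.26 and -0.74 in the KO steps, against medians over all genes of 0.01, -0.05, 0.00 and -0.02. The first and second step of a genotype share its 2-week libraries and are not independent of each other. Calls are by edgeR's quasi-likelihood test at a Benjamini-Hochberg adjusted p under 0.05 over all genes, and all fold changes are log2 values ± SE on the TMM scale. Scaled by the library total instead, the median of all genes moved by -0.24 in the first and -0.52 in the second WT step, so the falls given here are relative to that shift. Limma was run on the deposited FPKM (fragments per kilobase), which are not TMM-scaled. On these the median of all genes moved by -0.23 and -0.48 in the WT steps and -0.21 and -0.37 in the KO steps. Its estimates, here and below, include that shift.

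Among the ligand genes, Tgfb2 showed the largest fall. Tgfb2 encodes the ligand that needs the co-receptor betaglycan to bind the type II receptor well, and it lies at chr1:186622792-186705989, minus strand, 7 exons in the GENCODE M21 annotation of GRCm38. In WT its levels were 24.6, 17.8 and 16.0 CPM at 1 week, 5.80, 9.34 and 11.0 at 2 weeks and 2.26, 2.23 and 2.09 at 4 weeks, with no overlap between ages. It fell by 1.15 ± 0.28 (adjusted p = 0.00779) in the first step and fell by 1.99 ± 0.32 (adjusted p = 0.000121) in the second, which left 11.3% of the 1-week mean. In KO its levels were 17.1, 21.7 and 16.5 CPM at 1 week, 6.05, 6.77 and 12.1 at 2 weeks and 2.96, 5.81 and 4.23 at 4 weeks, so that 23.5% of the 1-week mean was left. The KO steps were falls of 1.15 ± 0.28 (adjusted p = 0.0100) and 0.95 ± 0.30 (adjusted p = 0.0216). The first was lost without KO replicate 2 at 2 weeks (-1.01 with adjusted p = 0.0563). The second was lost without KO replicate 3 at 2 weeks (-0.57 with adjusted p = 0.148), without KO replicate 1 at 4 weeks (-0.74 with adjusted p = 0.102) and without KO replicate 3 at 4 weeks (-0.93 with adjusted p = 0.0556). It was also lost when the libraries of those 2 groups alone were fitted (-0.95 with adjusted p = 0.0868).

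Tgfb1, the ligand gene best known from kidney fibrosis, lies at chr7:25687002-25705077, plus strand, 7 exons. In WT it stood at 43.8, 51.0 and 40.5 CPM at 1 week, 22.0, 34.9 and 39.4 at 2 weeks and 14.7, 15.1 and 13.5 at 4 weeks. The 2-week libraries were spread widely and all lay below those of 1 week and above those of 4 weeks. The first step of -0.49 ± 0.20 did not pass (adjusted p = 0.0893, 95% interval -0.91 to -0.06), but passed without WT replicate 3 at 2 weeks (-0.66 with adjusted p = 0.0375), with sex as a covariate (-0.63 with adjusted p = 0.0269) and by limma (adjusted p = 0.0275 and 0.0318 with the pseudocounts of 1 and 0.1). In the second step it fell by 1.15 ± 0.21 (adjusted p = 0.000307), a call kept in all 15 alternatives run. In KO, at 38.2, 40.5 and 35.8 CPM at 1 week, 23.0, 28.5 and 38.0 at 2 weeks and 15.3, 22.3 and 18.3 at 4 weeks, the first step of -0.35 ± 0.20 did not pass (adjusted p = 0.240), and it fell by 0.68 ± 0.21 (adjusted p = 0.0160) in the second. That second call was lost without KO replicate 3 at 2 weeks (-0.47 with adjusted p = 0.0978), without KO replicate 1 at 4 weeks (-0.56 with adjusted p = 0.0774) and with only the libraries compared (-0.69 with adjusted p = 0.0548).

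Tgfb3, the third ligand gene, lies at chr12:86056745-86079041, minus strand, 7 exons, and overlaps Ttll5 on the other strand. The sources used here do not state a stranded protocol, so reads from any exon stretch shared with Ttll5 could not be told apart. The overlap is of whole gene spans, and that of exons was not examined. The same holds for Gm29491 at Tgfb2 and Gm29233 at Thbs1. In WT its levels were 10.4, 9.34 and 11.6 CPM at 1 week, 3.38, 5.26 and 6.37 at 2 weeks and 1.93, 2.50 and 3.54 at 4 weeks. The 1-week libraries lay above all later ones, and those of 2 and 4 weeks overlapped. It fell by 1.05 ± 0.34 (adjusted p = 0.0344) in the first step and fell by 0.93 ± 0.37 (adjusted p = 0.0450) in the second. Both calls were close to the threshold: the first was lost without any 1 of 5 of the 6 WT libraries compared, all but WT replicate 3 at 2 weeks, with log2 fold changes of -1.12 to -0.84, and without replicate 1 of both genotypes at 2 weeks (adjusted p = 0.0868). The second was lost without WT replicate 2 (-0.90) or 3 (-0.71) at 2 weeks, without WT replicate 1 (-0.74) or 2 (-0.90) at 4 weeks and with only the libraries compared (adjusted p = 0.0545). In KO, at 8.94, 7.33 and 9.71 CPM at 1 week, 3.54, 4.87 and 7.34 at 2 weeks and 2.55, 5.73 and 2.08 at 4 weeks, neither step passed (-0.72, adjusted p = 0.153, and -0.62, adjusted p = 0.189). The second became a call without KO replicate 2 at 4 weeks (-1.18 with adjusted p = 0.0153), the library with the highest Tgfb3 of that age, and by limma (adjusted p = 0.0470 and 0.0368), which with a pseudocount of 1 also called the first (0.0312).

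The make-up of the ligand pool was read from FPKM, the per-length scale. FPKM is not TMM-scaled, and on it the median of all genes moved by -0.23 and -0.48 in the WT steps. It moved by -0.21 and -0.37 in the KO steps and by 0.10 for KO against WT at 4 weeks. The summed levels include that shift. The summed level of the 3 ligand genes in WT was 34.1 ± 2.63 FPKM (SD, n = 3) at 1 week, 19.1 ± 6.62 at 2 weeks and 5.89 ± 0.202 at 4 weeks. In KO it was 29.2 ± 1.43, 18.1 ± 6.35 and 8.51 ± 2.14 FPKM. Tgfb1 made up most of it at every age, at 74.6% ± 3.55 of the sum in WT at 1 week, 82.2% ± 0.524 at 2 weeks and 84.4% ± 3.04 at 4 weeks. The Tgfb2 share went from 14.2% ± 2.77 to 9.63% ± 0.442 and 5.57% ± 0.217 in WT, with no overlap between the 3 ages. In KO it was 15.8% ± 1.29, 9.73% ± 1.25 and 8.42% ± 1.03. At 4 weeks the Tgfb2 share was 5.69, 5.70 and 5.32% in the WT libraries and 7.34, 9.39 and 8.52% in the KO libraries, which did not overlap. The Tgfb3 shares of the 2 genotypes overlapped at every age. These shares are given as a description, with no test.

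**Figure D2:**
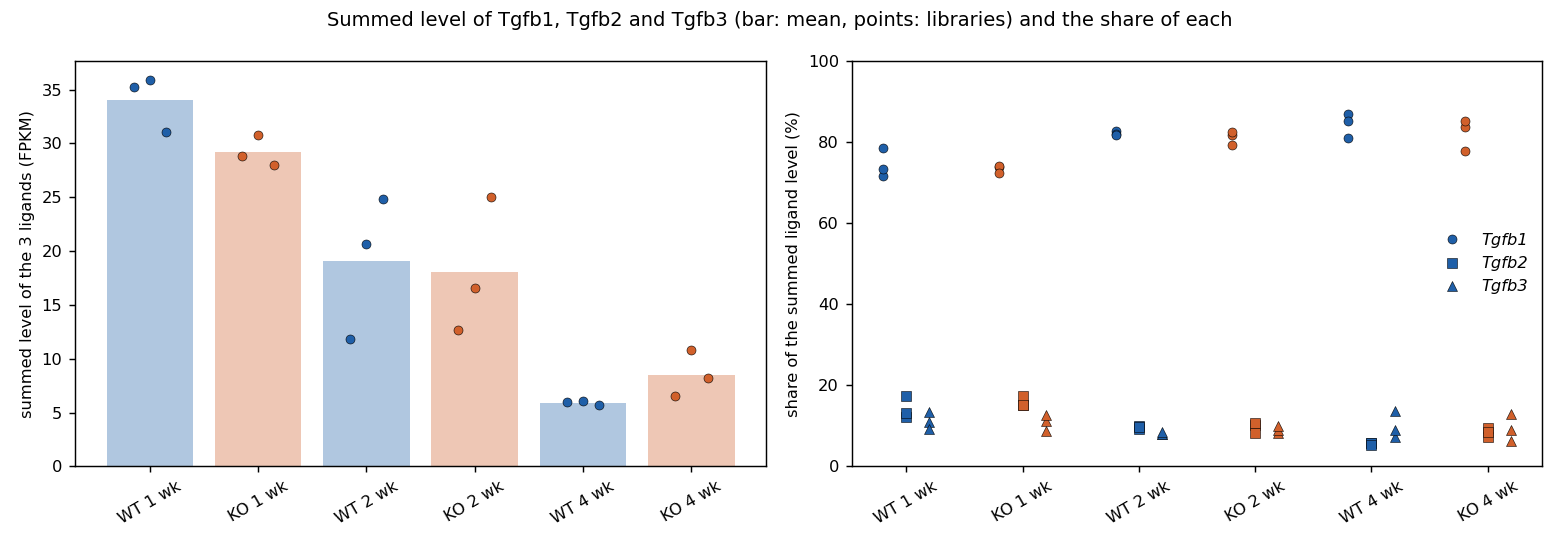
Left, summed FPKM (not TMM-scaled) of Tgfb1, Tgfb2 and Tgfb3 in each library (points) with the group mean (bar, axis from 0). Right, share in percent of that sum taken by each gene, where the Tgfb2 squares lie at 5.32% to 5.70% in WT and 7.34% to 9.39% in KO at 4 weeks.

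In WT at 4 weeks the receptor genes were left with 56.1% (Tgfbr2), 61.9% (Tgfbr1) and 99.5% (Tgfbr3) of their 1-week mean CPM, where the ligand genes were left with 11.3% to 32.0%. Tgfbr2, the type II receptor kinase that binds the ligand first (chr9:116084293-116175360, minus strand, 7 exons), stood in WT at 213, 199 and 195 CPM at 1 week, 126, 142 and 148 at 2 weeks and 117, 117 and 105 at 4 weeks. The 1-week libraries lay above all others. It fell by 0.54 ± 0.11 (adjusted p = 0.00214) in the first step, a call kept in all 15 alternatives run, and fell by 0.29 ± 0.11 (adjusted p = 0.0393) in the second. The second call was lost with only the libraries compared (adjusted p = 0.0512) and without any 1 of 5 of the 6 WT libraries compared, all but WT replicate 1 at 2 weeks, with log2 fold changes between -0.32 and -0.23. In KO it was at 182, 183 and 179 CPM at 1 week, 133, 149 and 152 at 2 weeks and 97.1, 133 and 98.9 at 4 weeks. It fell by 0.32 ± 0.11 (adjusted p = 0.0479) in the first KO step, a call lost when any 1 of the 6 libraries was left out (log2 fold changes of -0.35 to -0.27), with no filter on low counts, with only the libraries compared, with sex as a covariate or without replicate 1 of both genotypes at 2 weeks (adjusted p = 0.0626, 0.0514, 0.0585 and 0.113). It fell by 0.40 ± 0.11 (adjusted p = 0.00922) in the second, lost without KO replicate 1 at 4 weeks (-0.32 with adjusted p = 0.0504) and with only the libraries compared (adjusted p = 0.0812).

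Tgfbr1, the type I receptor kinase that phosphorylates the SMAD proteins (chr4:47353222-47414931, plus strand, 9 exons), was at 124, 126 and 107 CPM at 1 week, 138, 105 and 115 at 2 weeks and 71.2, 78.9 and 70.6 at 4 weeks in WT. The 1-week and 2-week libraries overlapped, with a log2 fold change of 0.00 between them (95% interval -0.36 to 0.37) whose sign turned with the scaling. All 4-week libraries were lower, and Tgfbr1 fell by 0.70 ± 0.17 (adjusted p = 0.00378) in the second step. In KO, at 116, 136 and 120.4 CPM at 1 week, 177, 99.8 and 103 at 2 weeks and 84.0, 84.4 and 95.1 at 4 weeks, replicate 1 at 2 weeks stood far above the other libraries of that age. The second KO step was a fall of 0.53 ± 0.17 (adjusted p = 0.0258). Without that library it was -0.21 with adjusted p = 0.192. The call was also lost with only the libraries compared (adjusted p = 0.122) and without KO replicate 1 (-0.49) or 2 (-0.50) at 4 weeks.

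Tgfbr3 encodes betaglycan, the co-receptor that presents ligand to the type II receptor, and lies at chr5:107106570-107289629, minus strand, 17 exons. It was the gene of the 10 with no call in any step by edgeR on all 18 libraries. In WT its levels were 64.0, 51.3 and 54.5 CPM at 1 week, 82.0, 63.3 and 75.5 at 2 weeks and 54.1, 62.3 and 52.5 at 4 weeks. The values at 2 weeks were the highest in mean, 0.38 above 1 week on the log2 scale (adjusted p = 0.113) and with a further step of -0.39 to 4 weeks (adjusted p = 0.0684). The second step was called in 4 of the 15 alternatives run: by limma with either pseudocount (-0.77 with adjusted p = 0.00152 and -0.85 with adjusted p = 0.00136), with only the libraries compared (-0.39 with adjusted p = 0.0370) and without WT replicate 2 at 2 weeks (-0.48 with adjusted p = 0.0396). In KO they were 52.0, 54.9 and 55.1 CPM at 1 week, 69.6, 68.9 and 72.4 at 2 weeks and 46.2, 87.0 and 60.6 at 4 weeks, and the 4-week libraries spanned the whole range of the other ages. The second KO step of -0.12 became a call without KO replicate 2 at 4 weeks (-0.40 with adjusted p = 0.0346) and by limma (-0.47 with adjusted p = 0.0377 and -0.52 with adjusted p = 0.0354), and the first of 0.38 with only the libraries compared (adjusted p = 0.0248). The share of Tgfbr3 in the summed FPKM of the 3 receptor genes went from 13.2% ± 1.03 in WT at 1 week to 19.9% ± 0.913 at 4 weeks, and from 13.5% ± 0.431 to 21.5% ± 4.02 in KO.

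All 3 latent binding protein genes fell from 2 to 4 weeks in both genotypes, and in WT they were left with 19.6% (Ltbp4), 26.9% (Ltbp1) and 29.7% (Ltbp3) of their 1-week mean CPM. Ltbp4 (chr7:27305136-27337692, minus strand, 33 exons), whose product binds mainly the Tgfb1 complex and takes part in elastic fibre assembly, stood in WT at 218, 296 and 249 CPM at 1 week, 165, 152 and 193 at 2 weeks and 42.7, 49.6 and 57.0 at 4 weeks. Each age lay below the one before without overlap. It fell by 0.58 ± 0.16 (adjusted p = 0.0130) in the first step and fell by 1.77 ± 0.16 (adjusted p = 6.59e-07) in the second. The first call was lost without WT replicate 2 at 1 week (-0.45 with adjusted p = 0.0735) or WT replicate 2 at 2 weeks (-0.50 with adjusted p = 0.0652). In KO it was at 238, 219 and 227 CPM at 1 week, 189, 186 and 210.1 at 2 weeks and 47.3, 61.6 and 76.1 at 4 weeks, and it fell by 1.66 ± 0.16 (adjusted p = 2.78e-06) in the second step. The first KO step was -0.23 (adjusted p = 0.342).

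Ltbp3, a latent binder also needed for skeletal growth, lies at chr19:5740904-5758532, plus strand, 28 exons, and part of its counts were not whole. In WT it was at 123, 116 and 114 CPM at 1 week, 93.9, 85.5 and 107 at 2 weeks and 33.0, 35.7 and 36.0 at 4 weeks, and in KO at 115, 102 and 113 CPM at 1 week, 106, 101 and 112 at 2 weeks and 30.7, 47.9 and 48.1 at 4 weeks. Its levels at 4 weeks lay below all others in both genotypes. It fell by 1.45 ± 0.14 (adjusted p = 9.32e-07) in the second step in WT and fell by 1.34 ± 0.14 (adjusted p = 4.15e-06) in KO, while the first steps of -0.30 (adjusted p = 0.120) and -0.04 (adjusted p = 0.857) did not pass. Limma called the first WT step of Ltbp3 (adjusted p = 0.0116 and 0.0146).

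Ltbp1, the latent binder first described with the large latent complex, lies at chr17:75005568-75392512, plus strand, 34 exons. Its levels were 116, 88.2 and 96.4 CPM at 1 week, 60.0, 70.6 and 88.7 at 2 weeks and 24.7, 27.7 and 28.4 at 4 weeks in WT and 94.3, 107 and 105 CPM at 1 week, 65.6, 78.6 and 106 at 2 weeks and 23.5, 29.6 and 24.5 at 4 weeks in KO. At 2 weeks both genotypes were spread over a wide range and at 4 weeks all 6 libraries lay between 23.5 and 29.6 CPM. It fell by 1.44 ± 0.17 (adjusted p = 8.12e-06) in the second WT step and fell by 1.69 ± 0.17 (adjusted p = 4.49e-06) in the second KO step. The first WT step of -0.45 (adjusted p = 0.0604) became a call without WT replicate 3 at 2 weeks (-0.61 with adjusted p = 0.0196), by DESeq2 (adjusted p = 0.0342) and by limma (0.0339 and 0.0380), and the first KO step of -0.29 (adjusted p = 0.246) without KO replicate 3 at 2 weeks (-0.49 with adjusted p = 0.0424). The second-step falls of Ltbp1, Ltbp3 and Ltbp4 were called in all 15 alternatives run in each genotype. Summed over the 3 genes, the level was 118 ± 4.29 FPKM in WT at 1 week and 17.0 ± 0.990 at 4 weeks, and 109 ± 2.89 and 21.6 ± 4.07 in KO. These sums are not TMM-scaled and include the shift of all genes with age. By FPKM, WT at 4 weeks kept 11.9% (Ltbp4), 16.5% (Ltbp1) and 17.5% (Ltbp3) of the 1-week mean. By TMM-scaled CPM it kept 19.6%, 26.9% and 29.7%.

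Thbs1 encodes thrombospondin-1, a matricellular protein of platelets and of stressed or growing tissue that can activate latent TGF-beta, and lies at chr2:118111876-118127133, plus strand, 22 exons. In WT it stood at 198, 199.7 and 226 CPM at 1 week, 125, 209 and 259.9 at 2 weeks and 86.6, 88.8 and 96.6 at 4 weeks, and in KO at 178, 179.7 and 233 CPM at 1 week, 127, 189 and 283 at 2 weeks and 66.3, 165 and 111 at 4 weeks. The 2-week libraries spanned more than the full range of the 1-week ones in both genotypes. It fell by 1.13 ± 0.31 (adjusted p = 0.00733) in the second WT step. The second KO step of -0.80 ± 0.31 did not pass (adjusted p = 0.0524, 95% interval -1.46 to -0.15), and passed without KO replicate 1 at 2 weeks (-1.05 with adjusted p = 0.0164) or KO replicate 2 at 4 weeks (-1.17 with adjusted p = 0.0116), and without replicate 1 of both genotypes at 2 weeks (-1.05 with adjusted p = 0.00687). DESeq2 (adjusted p = 0.0264) and limma with either pseudocount (0.0123 and 0.0110) called it as well. The first steps were -0.07 in WT and 0.02 in KO, with intervals of -0.72 to 0.58 and -0.63 to 0.67. The 5 platelet markers summed to 3.61 to 8.02 CPM in every library.

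At 2 weeks the spread within a genotype followed the replicate number. Replicate 1 was the lowest library of both genotypes for 6 of the 10 genes (Tgfb1, Tgfb2, Tgfb3, Tgfbr2, Ltbp1 and Thbs1), and replicate 3 the highest of both for 8 (these 6 with Ltbp3 and Ltbp4). Tgfbr1 was highest in replicate 1 of both. In a test chosen after seeing the data, with genotype in the model and replicate number as the factor tested, Tgfb1 (adjusted p = 0.00659), Tgfbr1 (0.0135), Thbs1 (0.0138), Ltbp1 (0.0159) and Tgfb2 (0.0417) passed, 5 of 10, where 22.4% of all genes did. None of the 10 passed at 1 week (0.0203% of all genes) or at 4 weeks (0.0474%); at unadjusted p under 0.05 the counts over all genes were 693 and 1593. The immediate-early markers (8 genes) summed at 2 weeks to 81.0, 139 and 413 CPM in WT replicates 1 to 3 and 80.4, 87.7 and 236 in KO, highest in replicate 3 of both. The smooth muscle markers (4 genes) summed to 129.6, 226 and 214 and 136, 200.4 and 247 CPM, lowest in replicate 1 of both. The mesangial and pericyte markers (7 genes), at 545, 631 and 843 and 505, 576 and 633 CPM, and the proliferation markers (4 genes), at 109, 189.8 and 213 and 148, 168 and 214, were lowest in replicate 1 and highest in replicate 3 of both. The podocyte markers (6 genes) were highest in replicate 1 and lowest in replicate 3 of both, at 1162, 874 and 815 and 926, 796 and 710.5 CPM. In all, 12 of 20 marker lists had the same lowest and the same highest replicate in both genotypes, where a tie went to the lower number. Skeletal muscle counts among the 12 by such a tie, at 0 CPM in KO replicates 1 and 2. Also among them were lists with low sums: lymphocyte (0.491 to 2.25 CPM), platelet (3.61 to 4.92) and adrenal (4.37 to 11.5). The Y-linked genes had 1 count in WT replicate 1 and 3404 counts in KO replicate 1. The part of these in the spread was not tested.

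**Figure D3:**
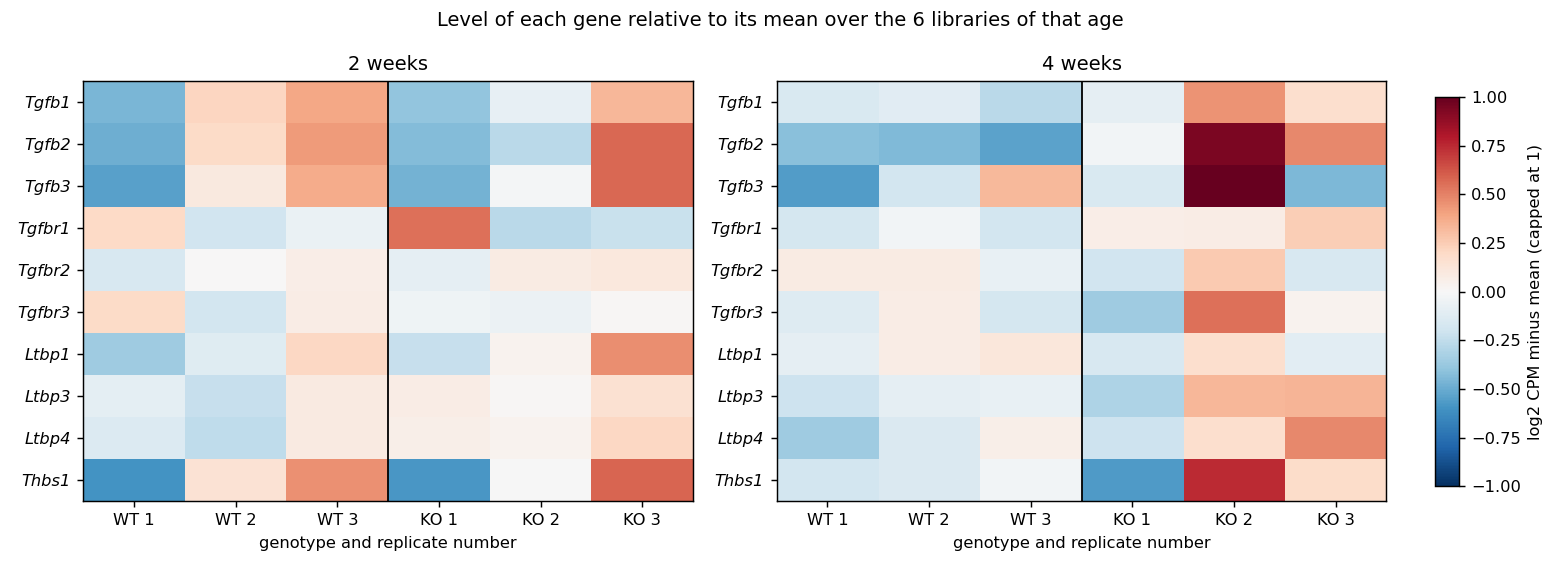
Log2 CPM of each gene (line) in each library (column) of 2 weeks and of 4 weeks, minus the mean of the 6 libraries of that age, from blue (lower) to red (higher), with colours capped at 1. At 2 weeks replicate 1 is low and replicate 3 high in both genotypes for most genes, and at 4 weeks KO replicates 2 and 3 hold the highest value of every gene.

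The second comparison asks whether the system differs without Ecm1. At 1 and 2 weeks none of the 10 genes passed the test, where 0.00677% of all genes did at each age, Ecm1 alone. At unadjusted p under 0.05 none of the 10 stood out at either age, against 196 and 249 of all genes tested, and DESeq2 and limma called none of the 10 either. The log2 fold changes of the 10 ran from -0.27 to 0.06 at 1 week, with a median of -0.09, and from -0.11 to 0.20 at 2 weeks, with a median of 0.06. Their 95% intervals lay within -0.97 and 0.57 at 1 week and within -0.68 and 0.79 at 2 weeks, and the widest were those of the ligand genes and of Thbs1. At 2 weeks, where same-numbered WT and KO libraries deviated together, KO was the higher library of all 3 pairs for Tgfbr2, Ltbp1, Ltbp3 and Ltbp4, 4 of 10, and the lower of all 3 for none, where 15.4% and 14.9% of all genes were. The pairing of replicate 2 is unsure, since WT replicate 2 correlated more with KO replicate 3 (0.35) than with KO replicate 2 (0.31). With the number as a block, the differences were 0.06 ± 0.09 for Tgfbr2, 0.18 ± 0.10 for Ltbp1, 0.16 ± 0.10 for Ltbp3 and 0.20 ± 0.10 for Ltbp4, and none of the 10 passed or had an unadjusted p under 0.05. At 1 week Tgfbr2 alone had KO libraries (182, 183 and 179 CPM) below all WT libraries (213, 199 and 195 CPM), at 89.6% of the WT mean. Such a lack of overlap in either direction was found in 9.35% of all genes at 1 week (4.95% with KO lower) and 5.14% at 2 weeks, where none of the 10 showed it.

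**Figure D4:**
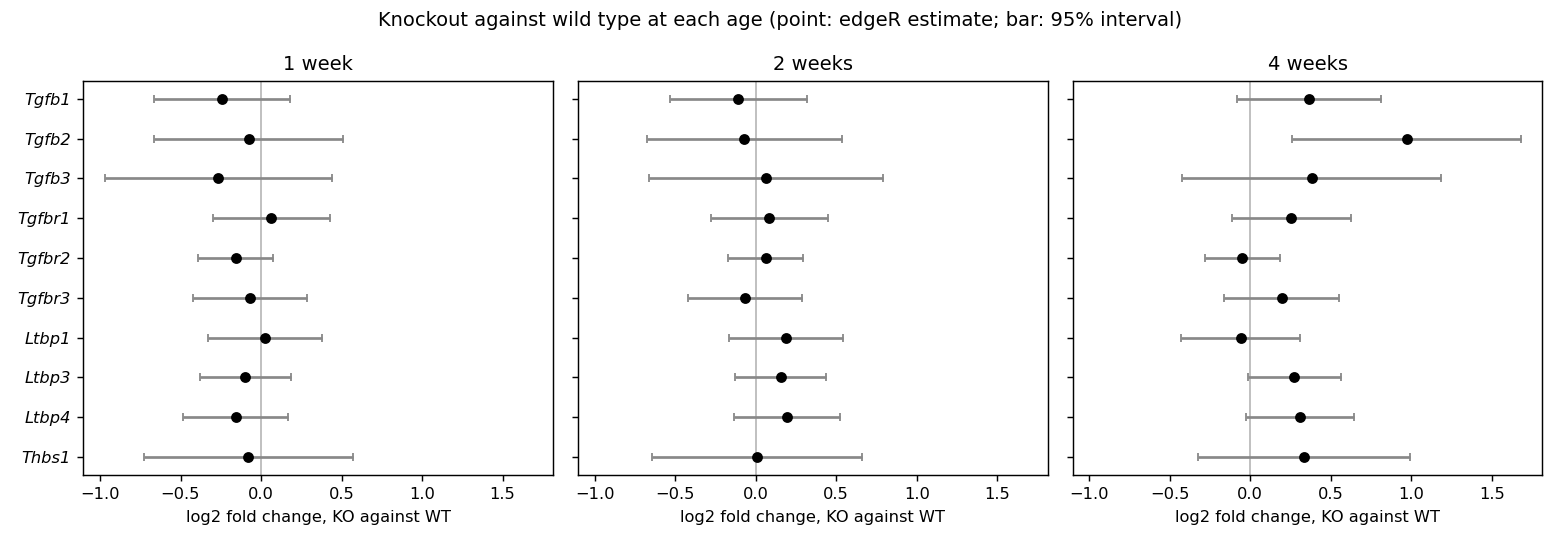
Log2 fold change of KO against WT for each gene (point) with its 95% interval (bar) at 1, 2 and 4 weeks, from edgeR's quasi-likelihood fit. The intervals include 0 everywhere but for Tgfb2 at 4 weeks, at 0.26 to 1.68.

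At 4 weeks again none of the 10 passed, where 3.23% of all genes did (1.51% higher and 1.72% lower in KO). DESeq2 and limma also called none of the 10, and 1 of them, Tgfb2, had an unadjusted p under 0.05, as did 2526 of all genes tested (17.1%). The estimates leaned one way: 8 of 10 were higher in KO, with a median of 0.29 against 0.00 for all genes. Scaled by the library total, which moved the median of all genes by 0.11, all 10 were higher. Without overlap, KO libraries lay above WT libraries for Tgfb1, Tgfb2 and Tgfbr1, 3 of 10, where 9.67% of all genes did so and 21% were separated in either direction. Per gene, the highest of the 6 libraries was KO replicate 2 for 7 of the 10 and KO replicate 3 for the other 3, while KO replicate 1 lay within or below the WT range for all but those 3 separated genes.

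Tgfb2 differed most. Its levels of 2.96, 5.81 and 4.23 CPM in KO, from 43 to 73 counts, all lay above the 2.26, 2.23 and 2.09 CPM in WT, from 23 to 34 counts. The KO mean was 198% of the WT mean. The log2 difference was 0.97 ± 0.34 (adjusted p = 0.131), with a 95% interval of 0.26 to 1.68. It became a call only without KO replicate 1 (1.18 with adjusted p = 0.0493), and ranged from 0.37 to 1.18 over the 14 alternatives run, the lowest on log2(FPKM + 1), which understates changes of low genes. With sex as a covariate, since KO replicate 3 had 2 Y-linked counts and the other libraries of that age 1569 to 2573, it was 1.04 with adjusted p = 0.159. The change of Tgfb2 from 2 to 4 weeks differed between the genotypes by 1.04 ± 0.44, unadjusted p = 0.0309 and adjusted p = 0.445, which did not pass. In that test of the difference none of the 10 was called, nor by DESeq2 or limma, where 0.176% of all genes were and 1441 had an unadjusted p under 0.05.

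The other ligand genes stood at 15.3, 22.3 and 18.3 CPM in KO against 14.7, 15.1 and 13.5 in WT for Tgfb1, a log2 difference of 0.36 ± 0.21 (adjusted p = 0.421). Tgfb3 had 2.55, 5.73 and 2.08 against 1.93, 2.50 and 3.54 CPM, a difference of 0.38 ± 0.38 (adjusted p = 0.695) that turned to -0.18 without KO replicate 2. The KO value of Tgfb3 was high in that library alone. Among the receptor genes Tgfbr1 was at 84.0, 84.4 and 95.1 CPM in KO and 71.2, 78.9 and 70.6 in WT, a narrow separation with a difference of 0.26 ± 0.17 (adjusted p = 0.515). Tgfbr2 overlapped, at 97.1, 133 and 98.9 against 117, 117 and 105 CPM, with a difference of -0.05 (95% interval -0.28 to 0.18). Tgfbr3 was at 46.2, 87.0 and 60.6 CPM against 54.1, 62.3 and 52.5, and its difference of 0.20 ± 0.17 (adjusted p = 0.635) turned to -0.08 without KO replicate 2. The 3 KO libraries of Tgfbr3 thus lay below, above and within the WT range.

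Of the latent binder genes, Ltbp3 had 30.7, 47.9 and 48.1 CPM in KO and 33.0, 35.7 and 36.0 in WT, where KO replicates 2 and 3 lay above and replicate 1 below all WT libraries. The difference was 0.27 ± 0.14 (adjusted p = 0.330), and became a call without KO replicate 1 (0.46 with adjusted p = 0.0125). Ltbp4 was at 47.3, 61.6 and 76.1 against 42.7, 49.6 and 57.0 CPM, a difference of 0.31 ± 0.16 (adjusted p = 0.345). Ltbp1 differed little, by -0.06 (95% interval -0.43 to 0.31), from 23.5, 29.6 and 24.5 CPM in KO and 24.7, 27.7 and 28.4 in WT. Thbs1 was at 66.3, 165 and 111 CPM in KO against 86.6, 88.8 and 96.6 in WT, so that its KO libraries lay below, far above and above the WT range. Its difference of 0.33 ± 0.31 (adjusted p = 0.672) turned to -0.03 without KO replicate 2. Averaged over the 3 ages none of the 10 was called (0.0338% of all genes were, and 1335 had an unadjusted p under 0.05, none of them among the 10), and the estimates ran from -0.05 to 0.27.

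Some marker sums differed between these libraries at 4 weeks in the same way, and others did not. The 6 fibroblast markers summed to 50.2, 195 and 151 CPM in KO replicates 1 to 3 and to 69.2 to 98.6 in WT. The 7 mesangial and pericyte markers summed to 295, 575 and 467 against 240.1 to 275 CPM. The immediate-early markers summed to 66.8, 123 and 494 against 59.6 to 90.3 CPM, and the smooth muscle markers to 163, 210.3 and 157 against 121 to 168 CPM. Of the smooth muscle sums KO replicate 2 alone lay above the WT range. The proliferation markers went the other way, at 92.1, 63.2 and 39.1 against 44.6 to 88.6 CPM. The macrophage markers summed to 98.9, 118 and 84.5 against 101 to 120 CPM, and the endothelial markers to 552.9, 588 and 603 against 553.5 to 597 CPM. Fibroblast and mesangial sums were therefore higher in KO replicates 2 and 3 than in any WT library, as were 6 of the 10 genes (Tgfb1, Tgfb2, Tgfbr1, Ltbp3, Ltbp4 and Thbs1), where 18.7% of all genes were. In KO replicate 1 the fibroblast sum was below and the mesangial sum above the WT range. The sums of the 6 podocyte markers (1030.5 to 1080.1 against 634 to 780.4 CPM) and of the 5 proximal tubule markers (8120.1 to 10333 against 11538 to 12033 CPM) separated all 3 KO from all WT libraries. Singly, 6 of 6 podocyte estimates were above 0 and 2 were called higher, where 1.51% of all genes were. Of the fibroblast estimates 6 of 6, and of the mesangial and pericyte estimates 7 of 7, were above 0, with 2 called higher in each list. All 8 immediate-early and all 4 smooth muscle estimates were above 0, and 0 were called. Of the proliferation, macrophage and endothelial estimates 3 of 4, 5 of 6 and 4 of 7 were above 0, with 1 macrophage gene called lower. Of the 5 proximal tubule estimates 1 was above 0, and 0 were called. No gene of these lists was at 0 in any 4-week library. Their part in the differences was not tested.

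The other genes of the pathway were taken from 3 lists. Of 28 further genes of TGF-beta latency and activation, 5 rose and 2 fell in KO at 4 weeks, where 1.51% of all genes rose and 1.72% fell, with a median log2 fold change of 0.62 against 0.00 for all genes. Mmp14, a membrane protease that can activate latent TGF-beta, was at 14.1, 27.4 and 26.1 CPM in KO against 10.5, 8.92 and 10.9 in WT and rose by 1.16 ± 0.22 (adjusted p = 0.0116). Bmp1, a protease that cleaves latent binding proteins and procollagen, was at 11.2, 19.4 and 20.6 against 8.78, 8.65 and 8.99 CPM and rose by 0.96 ± 0.20 (adjusted p = 0.0165). For both genes the lowest KO library exceeded the highest WT library. Mmp2, a gelatinase, was at 6.27, 19.3 and 10.3 against 5.58, 4.32 and 5.18 CPM (1.24 ± 0.31, adjusted p = 0.0378), and Thbs2, a relative of Thbs1 that lacks its activating sequence, at 8.13, 13.4 and 10.6 against 4.52, 5.74 and 3.72 CPM (1.18 ± 0.29, adjusted p = 0.0382). Ltbp2, a fibrillin-binding member of the latent binder family that does not bind latent TGF-beta, had 9, 85 and 10 counts in KO and 1, 4 and 1 in WT. Its fitted difference of 4.13 ± 0.93 (adjusted p = 0.0254) rests largely on KO replicate 2 and was 2.12 with adjusted p = 0.121 without it.

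Htra1, a secreted protease that cleaves TGF-beta family ligands and their binders, fell by 0.89 ± 0.22 (adjusted p = 0.0383), from 113, 128 and 116 CPM in WT to 68.2, 82.3 and 42.3 in KO. The other gene that fell was Ecm1 itself. Fbn1, the fibrillin to which latent complexes attach, was at 16.0, 52.6 and 43.0 against 14.5, 18.9 and 17.4 CPM, a difference of 1.13 ± 0.32 (adjusted p = 0.0619) that did not pass. The integrin genes of TGF-beta activation gave 0.11 for Itgav, 0.00 for Itgb8 and -0.74 for Itgb6 (adjusted p = 0.716, 1.000 and 0.323). The cell-surface anchors of latent TGF-beta gave 0.67 for Lrrc32 and 0.15 for Nrros (adjusted p = 0.371 and 0.839).

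Of 24 genes known as TGF-beta targets, 3 rose in KO at 4 weeks and none fell, where 1.51% of all genes rose and 1.72% fell. Of their estimates 23 of 24 were above 0, with a median of 1.06 against 0.00 for all genes. Col1a1, a chain of type I collagen, was at 50.6, 156 and 94.3 CPM in KO against 34.6, 48.5 and 37.7 in WT (1.31 ± 0.33, adjusted p = 0.0423). Tagln, an actin-binding protein of contractile cells, was at 55.9, 109 and 55.6 against 23.5, 33.8 and 28.5 CPM (1.36 ± 0.29, adjusted p = 0.0196). Itga11, a collagen receptor of fibroblasts, rose by 2.12 ± 0.50 (adjusted p = 0.0315) from 1, 2 and 2 counts in WT to 6, 10 and 7 in KO. In each of these 3 genes the KO libraries lay above all WT libraries. Among the target genes often used as readouts, 2 that did not pass were Ccn2 at 42.7, 293 and 191 against 47.8, 79.0 and 70.2 CPM (1.42 ± 0.45, adjusted p = 0.0990) and Tgfbi at 8.48, 23.8 and 19.5 against 7.38, 10.7 and 7.45 CPM (1.01 ± 0.34, adjusted p = 0.123). In both, KO replicates 2 and 3 lay above the WT range, and KO replicate 1 was within it or, for Ccn2, below it. Several of these targets are also markers of fibroblasts or contractile cells, whose sums are given above.

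None of the 20 co-receptor and SMAD pathway genes was called at 4 weeks by edgeR, 4 had an unadjusted p under 0.05, near the 17.1% of all genes that did, and their median was -0.03 against 0.00 for all genes. Smad3, the main signal transducer, gave 0.13 (adjusted p = 0.555), and Smad7, the inhibitor induced by the pathway, gave -0.14 (adjusted p = 0.692). The endothelial co-receptor gene Eng gave -0.10 and the endothelial type I receptor gene Acvrl1 gave 0.37 (adjusted p = 0.867 and 0.151). DESeq2 called 1 of the 20 higher and 1 lower. At 1 and 2 weeks the single gene called in the 3 lists was Ecm1.

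These counts at 4 weeks depended on single libraries, as did those over all genes. Over all genes 223 rose with every library in, 622, 104 and 71 without KO replicate 1, 2 or 3, and 155, 41 and 43 without WT replicate 1, 2 or 3. Of the latency and activation genes 10 rose when KO replicate 1 was left out, 1 when KO replicate 2 was and 1 when KO replicate 3 was. Without WT replicate 1, 2 or 3, 2, 0 and 1 rose. Of the target genes 13 rose when KO replicate 1 was left out, 0 when KO replicate 2 was, 1 when KO replicate 3 was and 0 when any 1 WT library was. Mmp14 was still called without KO replicate 2 (0.99 with adjusted p = 0.0496), while Bmp1, Mmp2, Thbs2, Col1a1, Tagln and Itga11 were not, at 0.86, 0.72, 0.99, 0.85, 0.96 and 1.81. Mmp14 was lost without WT replicate 2 (1.07 with adjusted p = 0.0711) or KO replicate 3 (1.03 with adjusted p = 0.0588). Htra1 was lost without any 1 WT library (-0.93 to -0.84) or KO replicate 3 (-0.66). Without KO replicate 1, Ccn2 (1.88 with adjusted p = 0.00134), Tgfbi (1.34 with adjusted p = 0.0126) and Fbn1 (adjusted p = 0.00123) became calls. With the 6 libraries of that age fitted alone, Ecm1 was the single gene of the 3 lists called.

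**Figure D5:**
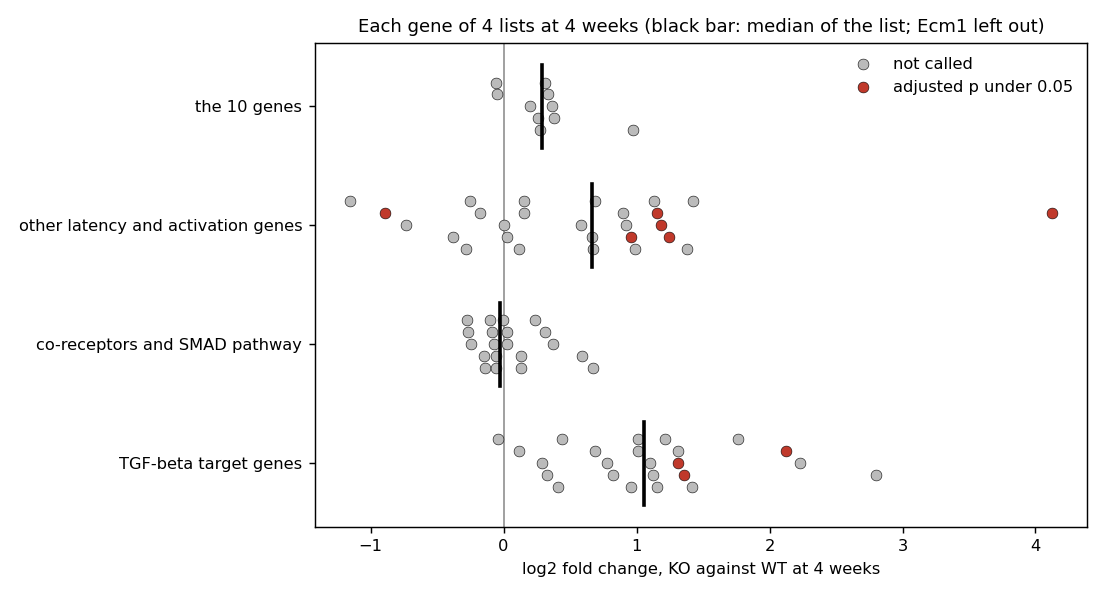
Log2 fold change of KO against WT at 4 weeks for each gene of the 4 lists (points, red where the adjusted p is under 0.05), with the median of the points shown as a black bar and Ecm1 left out of the second list. The 10 genes of the first line sit between -0.06 and 0.97 with none called, and the point farthest to the right, at 4.13, is Ltbp2.

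With age, genes of the 3 lists that were called mostly fell. From 1 to 2 weeks in WT 8 of 28 latency and activation genes fell and 1 rose, 12 of 24 targets fell and none rose, and 7 of 20 co-receptor and SMAD genes fell and 1 rose, so that 19, 12 and 12 were not called. Of all genes 11.1% fell and 12.5% rose in that step. In KO over that step, where age and sex cannot be told apart, 7, 8 and 4 fell and 1, 1 and 0 rose, where 9.16% and 10.3% of all genes did. In WT from 2 to 4 weeks 17 of 28 latency and activation genes fell and 4 rose, 17 of 24 targets fell and none rose, and 11 of 20 co-receptor and SMAD genes fell and 2 rose, where 24.8% of all genes fell and 23.5% rose. The falls of Mmp14 (-2.79, adjusted p = 2.44e-07), Fbn1 (-2.77, adjusted p = 6.03e-06) and Col1a1 (-2.43, adjusted p = 3.39e-05) were larger in size than that of any of the 10. Smad3 and Smad7 fell by 0.89 and 0.58 (adjusted p = 3.16e-06 and 0.00211). Itgb8, the integrin chain that presents latent TGF-beta to its receptor, went the other way and rose by 1.87 from 1 to 2 weeks and 0.55 from 2 to 4 weeks (adjusted p = 2.42e-05 and 0.0234). Htra1 rose by 1.86 in the second step (adjusted p = 8.84e-06). In the same step the fibroblast markers of WT summed to 211, 189.6 and 249.9 CPM at 2 weeks and 72.1, 98.6 and 69.2 at 4 weeks. The mesangial and pericyte markers summed to 545, 631 and 843 CPM and then 240.1, 245 and 275, and the proximal tubule markers to 5301, 6445 and 5242 CPM and then 12033, 11813 and 11538. In WT the fibroblast and mesangial sums were thus lower and the proximal tubule sum higher at 4 weeks, without overlap, and the podocyte sum was lower, at 634 to 780.4 against 815 to 1162 CPM. In KO the fibroblast sum was 254 to 287 and then 50.2 to 195 CPM and the proximal tubule sum 3699 to 5468 and then 8120.1 to 10333, also without overlap. The mesangial sum of KO overlapped between the ages (505 to 633 and 295 to 575 CPM), and the KO podocyte sum was higher at 4 weeks (1030.5 to 1080.1 against 710.5 to 926 CPM). The markers of a list did not all move with its sum. In the second KO step 4 of 6 podocyte and 2 of 6 fibroblast estimates were above 0, and in the second WT step 1 of 6 fibroblast estimates was. Their part in the falls was not tested. In KO from 2 to 4 weeks 12 of 28, 11 of 24 and 12 of 20 genes of the lists fell, and 5, 0 and 2 rose, where 18.7% and 18.2% of all genes did, and 11, 13 and 6 were not called.

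Within groups, where age and genotype are removed, the 10 genes did not move as 1 block. Over the 18 libraries the deviations from the group means of Tgfb1 and Tgfb2 had a Pearson correlation of 0.87, those of Tgfb2 and Ltbp1 0.87 and those of Tgfb1 and Thbs1 0.83. Tgfbr1 ran against them, with -0.57 for Tgfb3 and -0.56 for Thbs1. The genes whose deviations were most like those of a member were Grk5 for Thbs1 (0.96), Trim16 for Tgfb3 (0.95), Hs2st1 for Tgfbr1 (0.96), Myh11 for Ltbp1 (0.95), Col6a2 for Ltbp3 (0.95), Eml1 for Tgfb1 (0.93), S1pr3 for Tgfb2 (0.94), Rnf144b for Tgfbr3 (0.94), Tmem45a for Tgfbr2 (0.92) and Fam166b for Ltbp4 (0.88). With age and genotype left in, Ltbp3 and Ltbp4 were among the 3 genes most like each other (0.99), with Pltp the most alike for both (0.99). These values are descriptions over 18 libraries that share depth, scaling and the 2-week spread described above.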

How the data were processed

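Kidney RNA of 18 libraries was analysed, 3 in each of 6 groups. Per the file headers, the table deposited by the authors gives each gene's estimated count and its FPKM in every library. Counts were rounded, since 6.86% to 8.44% of a library's values had decimals. Tools listed in the submitters' processing notes, without their roles, are RSEM, StringTie 1.3.1, HISAT2 2.1.0, Bowtie2 and fastp. The sources used here give neither build nor annotation. Gene positions are those of GENCODE M21 on GRCm38, and promoter windows those of RefSeq on GRCm38.p6.

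All libraries were fitted in 1 model of 6 group means with edgeR 4.0.16 in R 4.3.3 (quasi-likelihood F test, TMM scaling, default expression filter, 12 residual degrees of freedom), with Benjamini-Hochberg adjustment over 14774 genes and calls at an adjusted p under 0.05. Values per library are TMM-scaled CPM. Log2 CPM used a prior count of 2. Alternatives were DESeq2 1.42.0, RLE size factors, no filter, limma 3.58.1 on log2(FPKM + 1) and log2(FPKM + 0.1), the replicate number as a block, only the groups compared, a sex covariate from Y-linked counts and each library left out in turn. Leaving out replicate 1 of both genotypes at 2 weeks, and all alternatives for the other pathway genes, were added after seeing the data. The test was checked on simulated data.

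The replicate numbers were checked for pairing by the correlation of deviations from group means across genes. Same-numbered WT and KO libraries had 0.68, 0.31 and 0.46 at 2 weeks, where the numbers were taken to pair them, a reading that comes from the data and not from the labels. WT replicate 2 had 0.35 with KO replicate 3, above its 0.31 with KO replicate 2, so the pairing of replicate 2 is not settled. The 10 genes and the 23 lists of pathway genes and markers were chosen with earlier results of these data known. The text names all 10 genes, pathway genes called in the comparison described, a set of always-named pathway genes (except a gene not reported here), and the genes most alike to each member among those with a mean of at least 1 CPM.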

Additional observations from a re-analysis of the deposited data

How the results depend on the processing

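Of 955 single-gene values under alternatives, 773 kept their direction and their side of the threshold, 103 lost and 42 gained a call in the same direction, and 37 turned direction. None of the 37 was of a gene called in its comparison, and the cause of these changes was not tested. Tgfbr1 from 1 to 2 weeks in WT turned to -0.0112 (DESeq2), -0.0113 (RLE), -0.24 and -0.25 (limma with either pseudocount), -0.0004 (replicate block), -0.0075 (only the libraries compared) and -0.11 without both replicates 1 at 2 weeks, and ran from -0.11 to 0.0948 with 1 library left out, below 0 without WT replicate 3 at 1 week or WT replicate 1 at 2 weeks. In KO it turned to -0.19 and -0.20 (limma) and -0.29 without both replicates 1, and ran from -0.29 to 0.18, below 0 without KO replicate 1 at either age. Thbs1 from 1 to 2 weeks in KO turned to -0.26 and -0.26 (limma), -0.0351 (replicate block) and -0.26 (sex covariate), and ran from -0.31 to 0.26 with 1 library left out, below 0 without KO replicate 1 or 2 at 1 week or 3 at 2 weeks. In WT it turned to 0.18 without both replicates 1 and ran from -0.31 to 0.18, above 0 without WT replicate 3 at 1 week or 1 at 2 weeks. Ltbp3 from 1 to 2 weeks in KO turned to 0.0509 (sex covariate) and ran from -0.0843 to 0.0017, above 0 without KO replicate 2 at 2 weeks. Tgfbr3 from 2 to 4 weeks in KO ran from -0.40 to 0.0669, above 0 without KO replicate 1 at 4 weeks. For KO against WT at 4 weeks, limma turned Tgfbr2 to 0.0391 and 0.0405 and Ltbp1 to 0.0217 and 0.0258. With 1 library left out Tgfbr2 ran from -0.21 to 0.029, above 0 without KO replicate 1 or 3, and Ltbp1 from -0.17 to 0.003, above 0 without KO replicate 1. Without KO replicate 2 the sign turned for Tgfb3 (range -0.18 to 0.64), Tgfbr3 (-0.0771 to 0.39) and Thbs1 (-0.0281 to 0.61).

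The number of the 10 genes called from 1 to 2 weeks in WT was 4, against 7 and 7 by limma and 2 to 6 with 1 library left out. From 1 to 2 weeks in KO it was 2, against 1 with no filter, 1 with the sex covariate, 1 without both replicates 1 and 0 to 2 with 1 library left out. From 2 to 4 weeks in KO it was 7, against 3 with only the libraries compared and 3 to 9 with 1 library left out. For KO against WT at 4 weeks it was 0 to 2 with 1 library left out, and it was 0 in every alternative run at 1 week, at 2 weeks, in the average and in the difference between genotypes.

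Over all genes, KO against WT at 1 week gave 4 calls by DESeq2 and 2 and 2 by limma, against 1, and at 2 weeks 2 by DESeq2, against 1. At 4 weeks the 477 calls became 937 by DESeq2, 2 with only the libraries compared, 266 with the sex covariate and 89 to 1201 with 1 library left out (395, 89 and 105 without WT replicate 1, 2 or 3, 1201, 223 and 139 without KO replicate 1, 2 or 3). The average of 3 ages gave 104 by DESeq2, 9 and 8 by limma, 3 with the sex covariate and 3 to 82 with 1 library left out, against 5. The difference between genotypes gave 187 by DESeq2, 0 with only the libraries compared, 4 with the sex covariate, 4 without both replicates 1 and 1 to 233 with 1 library left out, against 26. From 1 to 2 weeks, leaving out 1 library gave 2291 to 3451 calls in WT and 1701 to 2994 in KO, where the sex covariate gave 1469. From 2 to 4 weeks in KO, only the libraries compared gave 3275.

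With the replicate number as a block, KO against WT gave 1 call over all genes at 2 weeks, as without it, 931 calls at 4 weeks and 19 in the average, and no call of the 10 genes at any age. At 1 and 4 weeks the numbers did not pair the libraries: same-numbered WT and KO libraries had correlations of -0.04, 0.18 and 0.18 at 1 week and 0.07, 0.16 and 0.01 at 4 weeks. Between ages the numbers did not pair the libraries either, with correlations of same-numbered libraries of -0.15 to -0.06 and -0.05 to 0.03 in the WT steps and 0.03 to 0.15 and -0.06 to 0.02 in the KO steps. There the block gave calls for Tgfb1 (-0.51 with adjusted p = 0.0481) and Ltbp1 (-0.48 with adjusted p = 0.0374) from 1 to 2 weeks in WT and Thbs1 (-0.79 with adjusted p = 0.0168) from 2 to 4 weeks in KO, and changed no other call of the 10 genes. Of the pathway lists at 4 weeks it gave 8 higher latency and activation genes and 12 higher targets, and DESeq2 8 and 9.

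Tgfb2 had 23 to 73 counts per library at 4 weeks, which limits what could be detected, and a group left with 2 libraries was assumed to vary like the others. Scaling by the library total moved the median of all genes by -0.24 and -0.52 in the WT steps, -0.23 and -0.39 in the KO steps and 0.11 for KO against WT at 4 weeks. The deposited FPKM, which limma used without TMM scaling, moved it by -0.23 and -0.48 in the WT steps. In the KO steps they moved it by -0.21 and -0.37, and for KO against WT at 4 weeks by 0.10.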
